A study of Mus musculus with 3 samples.

Results

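The Notch genes examined here are the 4 receptor genes Notch1, Notch2, Notch3 and Notch4, the ligand genes Jag1 and Jag2, and 4 nuclear genes, namely Rbpj, Maml1, Maml3 and Hes1. Each listed peak of 5-hydroxymethylcytosine (5hmC) was assigned to one of them when its midpoint lay in the gene's span in the mouse genome or within 5 kb of it. This rule used gene names and positions only. It found 394 of the 208468 distinct peaks (0.189%) at 10 of 21779 protein-coding genes. The genes, and the other pathway genes below, were chosen with earlier results of these data known. Their shares set beside those of all genes are therefore descriptions only.

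5hmC is the oxidised form of 5-methylcytosine that TET enzymes make, and in many tissues it is found in the bodies of active genes and at enhancers. The series labels 2 samples as NIDF-AML, an acute myeloid leukaemia in mouse bone marrow cells induced by FLT3-ITD and NPMc together with the mutations R140Q of IDH2 and R882H of DNMT3A, and 1 sample as normal bone marrow. The labels give no strain, sex or age, and do not say whether the leukaemia samples came from separate animals. The 2 peak lists, deposited under the leukaemia samples, hold the same 223267 lines, so they were counted as 1 list with no replicate. Per their headers, index 4 was the treatment library of both, with index 5 or index 6 as the control, and the sources used here do not tie index 4 to a sample. The labels list no input sample, so a listed peak may stand for an excess over another 5hmC library. All values therefore belong to the index 4 library, and normal marrow and leukaemia were not compared. The list gives positions without heights or scores, read depth is unknown, and a gene without a peak is one for which none was listed.

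Notch signalling passes between touching cells. A ligand such as Jagged on one cell binds a Notch receptor on another, the receptor is then cut by an ADAM protease and by γ-secretase, and its freed intracellular part enters the nucleus. There it joins RBPJ, the DNA-binding factor of the pathway, and a Mastermind coactivator (MAML) to switch on target genes such as Hes1. In blood formation, Notch1 directs progenitors to the T cell lineage and Notch2 is needed for marginal zone B cells.

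Peaks were listed at all 10 genes, most densely in Notch1 and Jag2 and most sparsely in Jag1. Counting 5 kb on both sides, 73.1% of all protein-coding genes had a peak, so its presence at 10 of 10 adds little, and the numbers and places of the peaks are described instead. Of the 394 peaks, 367 (93.1%) lay in gene bodies and 27 in the flanks. Maml3 and Notch2, the longest of these genes, held 248 of them (62.9%). A peak in the body was likewise listed at all 10, against 66.6% of all protein-coding genes. With flanks included, 9 of the 10 had more peaks per kb than the median protein-coding gene, a level that 50% of genes exceed by its definition, and Jag1 was the exception. Their median body density was 0.493 peaks per kb, against 0.0941 over all protein-coding genes.

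No listed peak overlapped the promoter windows around the listed gene starts. RefSeq windows of 300 bases (build GRCm38.p6), from 250 before to 50 after a start, were matched for 9 of the 10 genes; Hes1 was not matched. None of their 10 windows overlapped a peak, and Rbpj has 2 windows that overlap each other. Over all protein-coding genes 4.55% of windows overlapped one, so 0 of 10 is close to that background. The windows of 4 genes are shown: Notch1 has the densest peaks of the receptors, Notch4 has the fewest CpGs of the 10 windows, and Jag2 and Jag1 had the highest ratio of body densities of the 8 pairs of related genes compared. All are written 5′ to 3′ on the strand of the gene, with CpG dinucleotides in capitals. Notch1 lies on chr2:26503773-26504072 (minus strand), Notch4 on chr17:34564045-34564344 (plus), Jag2 on chr12:112929446-112929745 (minus) and Jag1 on chr2:137116471-137116770 (minus).
Notch1: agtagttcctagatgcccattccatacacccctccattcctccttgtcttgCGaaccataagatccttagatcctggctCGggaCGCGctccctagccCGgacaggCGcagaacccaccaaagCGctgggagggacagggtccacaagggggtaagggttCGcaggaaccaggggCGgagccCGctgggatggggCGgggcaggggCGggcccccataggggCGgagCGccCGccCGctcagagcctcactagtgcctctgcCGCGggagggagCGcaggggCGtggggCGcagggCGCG
Notch4: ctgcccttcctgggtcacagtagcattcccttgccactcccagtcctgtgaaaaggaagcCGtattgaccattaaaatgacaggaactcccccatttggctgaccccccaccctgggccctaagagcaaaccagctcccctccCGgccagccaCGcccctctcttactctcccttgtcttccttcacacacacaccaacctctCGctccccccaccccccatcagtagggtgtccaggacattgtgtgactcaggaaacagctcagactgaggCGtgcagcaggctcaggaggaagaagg
Jag2: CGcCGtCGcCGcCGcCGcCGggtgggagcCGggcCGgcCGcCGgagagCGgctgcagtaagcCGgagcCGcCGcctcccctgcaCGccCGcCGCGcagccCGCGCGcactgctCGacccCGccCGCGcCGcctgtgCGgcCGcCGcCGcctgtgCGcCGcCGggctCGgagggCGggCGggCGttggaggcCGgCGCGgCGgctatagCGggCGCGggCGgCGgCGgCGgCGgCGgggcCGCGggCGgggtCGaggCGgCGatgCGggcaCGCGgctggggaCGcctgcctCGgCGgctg
Jag1: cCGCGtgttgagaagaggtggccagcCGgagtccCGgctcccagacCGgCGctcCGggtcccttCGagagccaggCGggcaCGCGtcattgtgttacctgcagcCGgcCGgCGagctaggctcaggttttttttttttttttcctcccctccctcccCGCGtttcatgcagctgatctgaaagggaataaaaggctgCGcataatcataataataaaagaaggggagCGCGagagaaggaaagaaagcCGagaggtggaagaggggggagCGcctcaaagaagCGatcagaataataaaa
The Notch1 window holds 23 CpGs, the Notch4 window 5, the Jag2 window 63 and the Jag1 window 22. The median over the 21263 windows of protein-coding genes was 13. Notch2 has 41, Notch3 25, Maml1 24, Maml3 22, and the Rbpj windows 26 and 28. Among all windows, a peak overlapped 6.58% of those with fewer than 10 CpGs, 5.85% of those with 10 to 19, 1.70% of those with 20 to 29 and 0.914% of those with 30 or more. The Notch4 window is the only one of the 10 with fewer CpGs than the median, and it too had no peak. The letters TGGGAA, a core of the sequence that RBPJ binds, or their reverse complement TTCCCA on the other strand, were found in the windows of Maml3 and Rbpj (3 of 10 windows), against 24.5% of all windows. The overlapping Rbpj windows share a TTCCCA site, so that site is counted in both. A match is a description of the letters and not of binding.

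Although no peak lay over the listed starts, peaks lay close to several of them. None of the 9 genes with a listed start had a peak midpoint less than 500 bp from it, against 11.3% of all starts. With 9 starts, 0 is close to that share. At 4 of the 9, a peak lay between 500 and 1000 bp upstream, where 11% of all protein-coding starts have one. This interval was chosen after the values were seen. The distances were 742 bp for Notch1, 767 bp for Notch4, 962 bp for Notch2 and 992 bp for Maml1. These values depend on the start used. The listed start of Maml1, 50292336, lies inside its span, whose 5′ end is 50293131. From that end the same peak lay at -0.197 kb (negative is upstream). At Jag2 the nearest upstream peak lay 1113 bp from the listed start but at -0.796 kb from the 5′ end of the span. Downstream of the start, the first peaks were closest in Jag2, Notch3, Rbpj, Notch2 and Notch1. They came at 1071 bp in Jag2, 1210 bp in Notch3, 1338 bp after the second start of Rbpj, 1870 bp in Notch2 and 2076 bp in Notch1. At Maml3 the first came at 4538 bp, the farthest of the 9, and upstream of that gene the nearest peak was 35342 bp away.

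**Figure D1:**
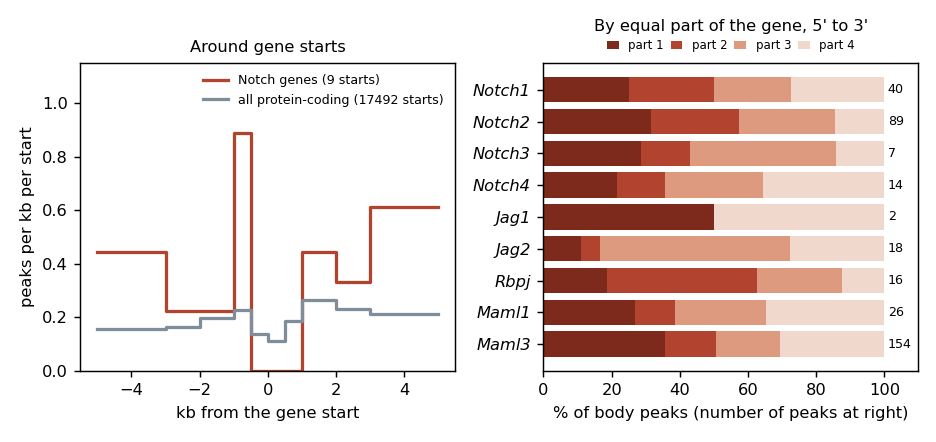
Left, listed 5hmC peaks per kb per gene start against the distance from the start in kb (upstream negative), for the 9 Notch genes with a listed start and for 17492 protein-coding starts. The line of the Notch genes is at 0 from 500 bp upstream to 1000 bp downstream of the start and at 0.889 from 500 to 1000 bp upstream, which is 4 peaks. Right, the share of body peaks in each of 4 equal parts of 9 genes from 5′ to 3′, with the number of body peaks at the right of each bar.

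Among the receptors, Notch1, Notch2 and Notch4 were rich in peaks and Notch3 was not. Notch1 spans 45.9 kb of chromosome 2 (26457902 to 26503822). Its body held 40 peaks (95% interval by the exact Poisson method 28.6 to 54.5), or 0.871 per kb. With flanks it had 43. Among the 400 protein-coding genes nearest to it in span the median was 7, and 97.25% of them had fewer. Its own surroundings, from 5 to 500 kb on both sides, held 0.229 peaks per kb, so the body was 3.80 times as dense (exact interval of the ratio 2.64 to 5.33). The intervals cover counting error only and treat peaks as independent.

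Notch2 held 89 body peaks (71.5 to 109.5) over 136.8 kb on chromosome 3 (98013538 to 98150367), or 0.650 per kb. Including flanks it had 91, against a median of 13 in genes of like span, of which 97.5% had fewer. The body was 4.63 times as dense as its surroundings (3.51 to 6.09), which held 0.140 per kb. It also carried the widest peak of the 10 genes, 257 bp (98052952 to 98053208). Peaks were sparser toward its 3′ end: cut into 4 equal parts from 5′ to 3′, the gene held 28, 23, 25 and 13.

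Notch4, a receptor gene known for expression in endothelium, held 14 body peaks (7.65 to 23.5) over 24.3 kb on chromosome 17 (34564286 to 34588543), or 0.577 per kb. With flanks the count was 20, more than in 93.5% of genes of like span. Of these 20, 6 lay within 5 kb of another protein-coding gene (Gpsm3 and Pbx2 adjoin it), and 6 were listed more than once. Its surroundings were dense as well, at 0.411 per kb, higher than around 97.4% of protein-coding genes. The ratio of body to surroundings was 1.40 with an interval of 0.761 to 2.38, which includes 1.

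Notch3, a receptor gene known from vascular smooth muscle, is nearly equal to Notch1 in length but held 7 body peaks (2.81 to 14.4) over 46.1 kb on chromosome 17 (32120820 to 32166896), or 0.152 per kb. Its 9 peaks with flanks are near the median of 7 in genes of like span, and 53.5% of those had fewer. The surroundings held 0.339 per kb, more than around 92.4% of genes, and the body was 0.448 times as dense (0.179 to 0.932). The body of Notch3 was thus low relative to its own surroundings and not relative to the median of all protein-coding bodies (0.0941 per kb). Between the peaks at 4.21 kb and 22.7 kb from the 5′ end, 18.5 kb held none.

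The differences among receptors were set against counting error as ratios of body densities. Notch1 was 5.73 times as dense as Notch3 (exact interval 2.54 to 15.2), Notch2 4.28 times (1.99 to 11.0) and Notch4 3.80 times (1.43 to 11.1). Among the other three no ratio had an interval that excluded 1. It was 0.747 for Notch2 over Notch1 (0.509 to 1.11), 1.51 for Notch1 over Notch4 (0.804 to 3.003) and 1.13 for Notch2 over Notch4 (0.638 to 2.14). These are 6 of the 8 ratios computed between related genes. The intervals are not adjusted for that number, and with 1 list no test over samples was possible.

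**Figure D2:**
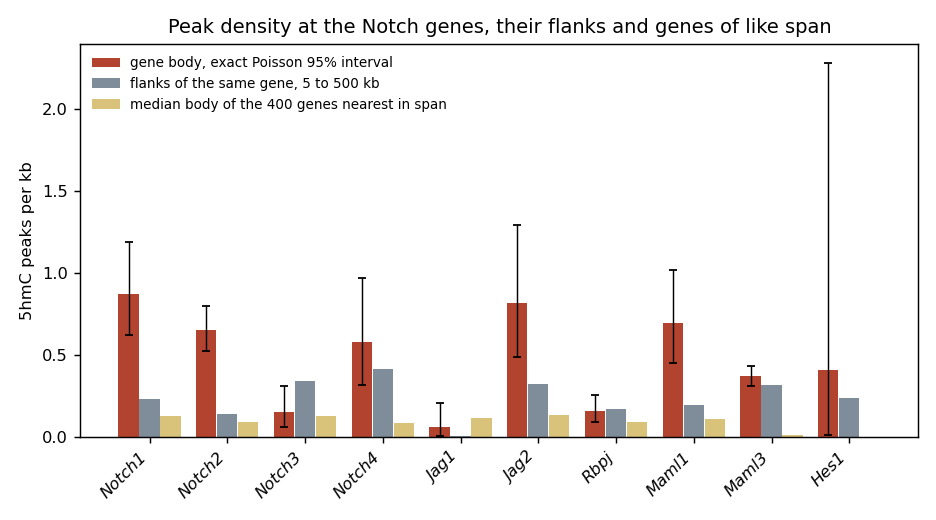
5hmC peaks per kb (vertical axis) in the body of each of the 10 Notch genes with exact Poisson 95% intervals, in the flanks of the same gene from 5 to 500 kb, and as the median body of the 400 protein-coding genes nearest in span. Notch1 (0.871), Jag2 (0.818), Maml1 (0.693) and Notch2 (0.650) stand above their flanks, Notch3 (0.152) stands below its flanks (0.339), and the interval of Hes1 is wide because it rests on 1 body peak.

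The ligand genes gave the widest contrast. Jag2 held 18 body peaks (10.7 to 28.4) over 22.0 kb on chromosome 12 (112907803 to 112929812), or 0.818 per kb. Its 22 peaks with flanks exceeded those of 97.25% of genes of like span, whose median was 5, and its body was 2.52 times as dense as its surroundings (1.48 to 4.05). Of the 22, 3 lay within 5 kb of another protein-coding gene, Nudt14 being the neighbour. The peaks sat mostly in the 3′ part: 4 equal parts from the 5′ end held 2, 1, 10 and 5, and 14 of the 18 lay between 11.5 and 21.5 kb from the 5′ end. The stretch from 2.45 to 9.36 kb held none.

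Jag1, a ligand gene expressed by stroma and endothelium of the marrow, held 2 body peaks (0.242 to 7.22) over 35.1 kb on chromosome 2 (137081451 to 137116520), or 0.0570 per kb. They lay at 137085408 to 137085440 and at 137112592 to 137112656, 27.2 kb apart. Another peak lay 3032 bp upstream of the gene, and 64.5% of genes of like span had more than these 3. The surroundings of Jag1 were poor too: 7 peaks in 990 kb, or 0.00707 per kb, lower than around most genes, since 11.5% of protein-coding genes had poorer surroundings. The body was therefore 8.07 times as dense as its surroundings, but on 2 peaks, with an interval of 0.818 to 42.4. Jag2 had 14.3 times the body density of Jag1 (3.43 to 127). Positions around Jag1 are multiples of 16 bp, which makes its peak limits the coarsest of the 10 genes.

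**Figure D3:**
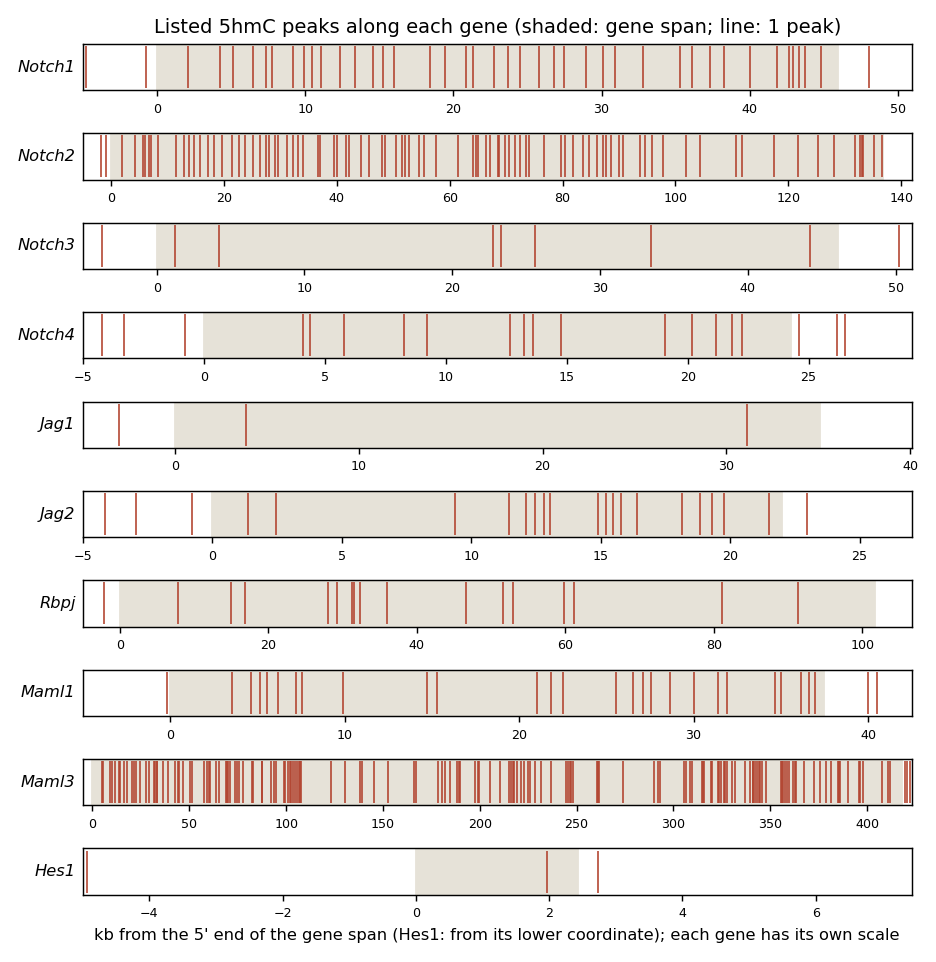
Position of every listed 5hmC peak (vertical line) along each of the 10 genes, in kb from the 5′ end of the gene span, with 5 kb on both sides and each gene on its own scale; Hes1 is drawn from its lower coordinate. Notch1 has no gap above 2508 bp between neighbouring body peaks, and Jag2 is filled mainly from 11.5 to 21.5 kb. Notch3, Rbpj and Jag1 have empty stretches of 18.5, 19.8 and 27.2 kb.

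Of the nuclear genes, the coactivators held more peaks than most genes of their length and Rbpj was near the level of genes of its length. Rbpj held 16 body peaks (9.15 to 25.98) over 101.7 kb on chromosome 5 (53555779 to 53657445), or 0.157 per kb. With flanks it had 17, against a median of 10 in genes of like span, of which 62% had fewer. The ratio of body to surroundings was 0.911 (0.509 to 1.52). From 28.1 to 38.1 kb it held 6 peaks, and from 61.2 to 81.1 kb none. The starts listed for Rbpj, at 53590346 and 53590486, lie well inside its span, and the nearest peaks lay 2206 bp before the first and 1338 bp after the second.

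Maml1 held 26 body peaks (17.0 to 38.1) over 37.5 kb on chromosome 11 (50255634 to 50293131), or 0.693 per kb. Its 29 peaks with flanks exceeded those of 94.25% of genes of like span, and the body was 3.52 times as dense as its surroundings (2.24 to 5.32). Of the 29, 2 lay within 5 kb of another protein-coding gene, with Canx as the neighbour.

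Maml3, the longest of the 10, held 154 body peaks (130.6 to 180.3) over 418 kb on chromosome 3 (51687320 to 52105319), or 0.368 per kb. It had 157 with flanks, and the median of genes of like span was 6, with 98% of them below Maml3. These comparison genes span 316 to 718 kb, a wider range than for the other members because few genes are so long. They are also poor in peaks, with a median body density of 0.0128 per kb against 0.0941 over all protein-coding genes. The surroundings of Maml3 held 0.315 per kb, and the ratio of 1.17 had an interval of 0.957 to 1.42. Its 4 equal parts held 55, 23, 29 and 47 peaks from 5′ to 3′, fewest in the second. The 10 kb that end at 107.5 kb from the 5′ end held 11, and the 15.7 kb that follow held none, the longest empty stretch of the gene. Maml1 was 1.88 times as dense as Maml3 (1.19 to 2.86). Chromosome 3, which carries both Maml3 and Notch2, had 0.0574 peaks per kb between its first and last protein-coding gene, the lowest density among the chromosomes of these 10 genes.

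Hes1, a repressor and the best known direct target of the pathway, spans 2.44 kb on chromosome 16 (30065357 to 30067796). It held 1 body peak (30067272 to 30067368), and 2 more lay in its flanks, at 30060394 to 30060442 and at 30068066 to 30068122. Those 3 compare with a median of 1.5 in genes of like span, 39% of which had none. The body density of 0.410 per kb has an interval of 0.0104 to 2.28, so at this count its level cannot be placed above or below that of the surroundings (0.236 per kb).

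Against their own surroundings, 8 of the 10 bodies were denser, and 44% of protein-coding genes with a peak in their surroundings were. That share covers genes of all lengths and is not matched for span. A gene without a body peak counts in it as not denser. The interval of the ratio lay above 1 for Notch1, Notch2, Maml1 and Jag2 and below 1 for Notch3.

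**Figure D4:**
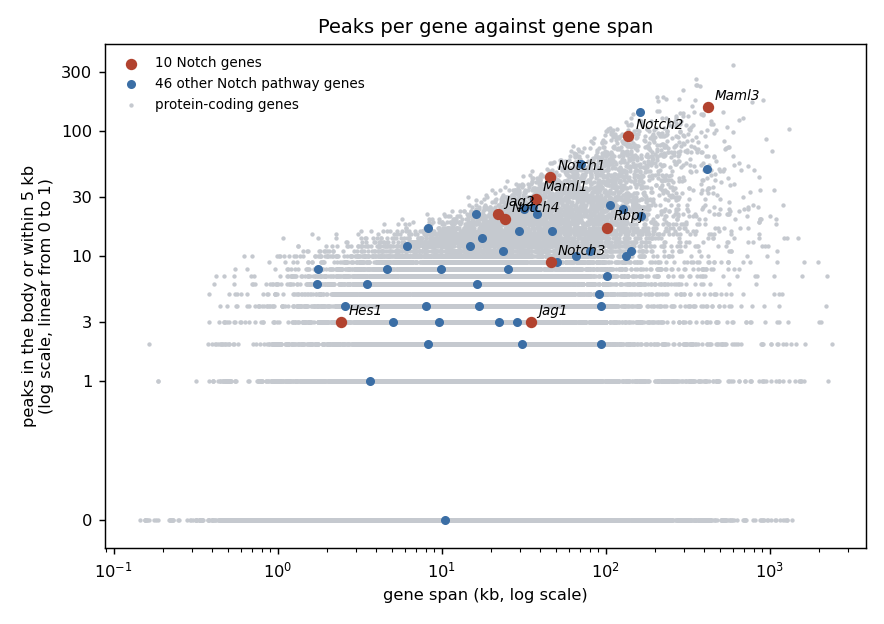
Peaks per gene, with 5 kb on both sides (vertical, log scale, linear from 0 to 1) against gene span in kb (horizontal, log scale) for the 10 Notch genes, 46 other Notch pathway genes and all protein-coding genes. Maml3 (157), Notch2 (91), Notch1 (43), Maml1 (29), Jag2 (22) and Notch4 (20) exceed 93.5% to 98% of genes of like span, and Jag1 (3) lies low.

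The spacing of peaks differed among the members as well as their number. In Notch1 neighbouring body peaks were a median of 972 bp apart, the closest 314 bp and the farthest 2508 bp, and 4 equal parts of the gene held 10, 10, 9 and 11. The coefficient of variation (CV) of its spacings, their SD divided by their mean, was 0.507. Of the 1661 genes with at least 20 body peaks, 5 had a lower CV, and the median was 1.01. All 5 were among the 257 such genes whose density was within 20% of that of Notch1, where the median was 0.727. Notch2 had a CV of 0.756, Maml1 of 1.04 and Maml3 of 1.14, and 15.1%, 54.2% and 66.6% of genes lay below them. Among genes within 20% of their own density, the shares below were 24.5% for Notch2, 85.8% for Maml1 and 63.7% for Maml3, so Maml1 was more uneven than most genes of its density. Jag2, with 18 body peaks, was below the limit of 20 and had a CV of 1.36 at 0.818 peaks per kb. The caller works in windows of 250 bp and fragments of 200 bp. Whether these settings affect how close or how evenly peaks are listed in dense genes such as Notch1 was not tested.

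The widths of the 394 peaks had a median of 65 bp, the same as the median of the whole list, and ran between 17 and 257 bp. Other annotated genes of any type lay within 5 kb of 67 of the peaks, and another protein-coding gene within 5 kb of 15. For Notch1, 20 of the 43 peaks lay near other annotated genes, all of them non-coding (the long non-coding RNA genes 0610009E02Rik and Gm35978 and Mir6996), and their peaks and those of Notch1 cannot be told apart. Intervals listed more than once made up 3.30% of the 394, against 6.45% of the whole list. The peaks nearest to the 5 kb limit were 4939 bp from Hes1 and 4778 bp from Notch1 on the inside, and 5060 bp from Notch3 and 5546 bp from Notch1 on the outside.

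Other genes of the pathway were mostly peak-bearing too. Of 46 further genes, 45 (97.8%) had a peak, flanks included, as did 73.1% of all protein-coding genes, and Hey2, a repressor and target gene, had none. Their median was 9.5 peaks, against 4 over all protein-coding genes. With flanks included, 35 of the 46 had more peaks per kb than the median gene, which 50% of genes exceed, and 32 had more peaks than the median of genes of like span, as 44.7% of all protein-coding genes did.

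Of the other ligands, the Delta-like genes, Dll4 had 8 peaks and Dll1 3, and 1 of the 3 exceeded the median of genes of like span. The enzymes that attach sugars to the receptor had more than the median of genes of like span in 5 of 5 cases, led by Lfng with 17 and Pofut1 with 16. Among the proteases that cut the receptor and the subunits of γ-secretase, Psen2, a catalytic subunit, had 29 and Furin, which cuts the receptor during its maturation, 22. Of the ubiquitin ligases that act on ligands, Mib2 had 12 and Neurl1a 11. Genes that control receptor turnover passed the median of genes of like span in 8 of 9 cases, with 25 peaks at Dtx4 and 24 each at Dtx1 and Numb. The proteases passed it in 6 of 8 cases and the ubiquitin ligases in 2 of 3, against 44.7% of all protein-coding genes.

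Nuclear partners differed widely in peak number. Maml2, the remaining Mastermind gene, had 50 peaks over 413 kb, or 0.121 per kb of body, against 0.368 in Maml3 of nearly the same length, and Kat2b, an acetyltransferase, had 26. Among the corepressors, Spen, which binds RBPJ, had 55. The median of genes of like span was exceeded by 3 of the 6 corepressor genes and 3 of the 5 coactivator genes. With so few genes, both shares are close to the 44.7% of all protein-coding genes. Target genes had the lowest median body density of the 8 role groups, 0 per kb. With flanks included, however, 4 of these 7 genes had more peaks than the median of genes of like span, against 44.7% of all protein-coding genes. Hes5 and Heyl had 6 peaks each, but those of Hes5 all lay in its flanks.

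As a loose check of the tissue, the 6 myeloid genes Lyz2, Csf1r, Spi1, Mpo, Elane and Cebpe had 7 to 34 peaks each within 5 kb. The neuronal genes Snap25, Syt1 and Gad1 and the hepatocyte gene Alb had none, and the hepatocyte genes Apoa1 and Ass1 had 3 and 23. Peaks of 5hmC do not measure expression, and marrow holds many cell types, so fewer cells of a type and less 5hmC per cell cannot be told apart.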

How the data were processed

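5hmC in sonicated genomic DNA was tagged by β-glucosyltransferase with an azide sugar, coupled to biotin, captured and sequenced as paired ends, per the labels' protocols. The deposited lists give the start and end of each peak and no other value. Peaks were called with PICS, a model of forward and reverse reads around a site, per the file headers (read length 99 bp, fragment length 200 bp, windows of 250 bp moved by 20 bp, at least 3 reads per window and 10 per region). The build mm10 is per the submitters' processing notes; the aligner and any score limit are not given in the sources used here.

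From these lists, 14799 repeated lines (6.63%) were dropped, which left 208468 distinct intervals. Repeats and rounding of positions to multiples of 2 to 16 bp at these genes limit short distances. Gene spans came from a RefSeq table of GRCm38.p6, the same chromosome assembly as mm10; genes that start below 3 Mb (except on Y) were left out. Strand and starts came from RefSeq promoter windows. Exons were not used here. Like-span genes were the 200 shorter and 200 longer protein-coding genes nearest in span. Counts have exact Poisson intervals and ratios exact conditional intervals (95%), from Python 3.11.15, pandas 2.3.3 and scipy 1.17.1. Counting was tested on simulated peaks. With 1 list no test over samples was possible. All 10 members are named, and of the other pathway genes the 2 with the most peaks in each role and those without a peak. A gene that this rule selects is not reported here. The members and lists were chosen with earlier results of these data known. Alternatives were other flanks, repeated lines kept, any overlap, merged peaks and wider peaks.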

Additional observations from a re-analysis of the deposited data

How the results depend on the processing

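The 394 peaks at the 10 genes became 367 with bodies alone, 420 with 10 kb flanks, 407 with repeated lines, 394 by any overlap and 391 with intervals under 200 bp apart merged. With only intervals at least as wide as the median (65 bp), 222 were left, because narrower peaks are left out by construction. No score exists for a stricter limit. In every one of these settings all 10 genes kept a peak and 9 had more per kb than the median gene. Of the other pathway genes, 42 to 45 had a peak. Of 90 recomputed counts and densities of single genes (densities also with flanks included), 84 stayed inside the Poisson interval of the reported value, and the other 6 (Notch1, Notch2, Notch4, Jag2, Maml1 and Maml3) lay below it when narrow intervals were left out. Most settings recount nearly the same intervals of 1 list, so staying inside was close to fixed in advance and does not measure stability. Leaving out either leukaemia list changed nothing, since the lists are the same, which says nothing about stability. No paired analysis was possible because only 1 group has peak lists and no result comes from a test. Unknown depth limits what the absence of a peak means.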
